A study of Mus musculus with 5 samples.

Results

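The fatty acid elongase genes Elovl1 to Elovl7 and the desaturase genes Fads1, Fads2 and Fads3 are described here in primary adipocytes of the mouse. The members are the rows of the deposited expression table that carry these symbols, and all 10 were found, each as 1 row, among 24330 symbols. Primary fat cells of wild-type C57BL/6 mice aged 17 weeks gave the 3 RNA-seq libraries, called replicates 1, 2 and 3, and the labels name the epididymal depot as their tissue. The series maps DNA methylation that depends on Dnmt1, the enzyme that maintains it, and its 2 bisulfite libraries (1 Dnmt1 AKO, an adipocyte-specific knockout, and 1 wild type) were not analysed here. The design gives no contrast between RNA samples, so the questions are at what level each gene stood, in what order, and how far the libraries differed. Nothing in the labels ties the libraries to separate animals, so every SD and p-value reflects the spread of these samples alone and may be technical.

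Long-chain fatty acids are lengthened in the endoplasmic reticulum by a cycle that adds a pair of carbons from malonyl-CoA in each turn. An ELOVL protein catalyses the first, condensing step and fixes which chains are lengthened, while the later steps are shared by all chains. Front-end desaturases insert double bonds between an existing double bond and the carboxyl end, with electrons passed on by cytochrome b5. Elongases and desaturases alternate in making arachidonic and docosahexaenoic acid from plant-derived precursors. In fat tissue they are also among the enzymes that can affect the chain length and saturation of stored triglyceride.

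Levels are FPKM, fragments scaled by transcript length and by library size, so genes can be compared with each other within a library. Series of 3 values below follow the order of replicates 1, 2 and 3. The table holds no counts, so depth is unknown and no interval for counting error is given. Per library, all rows summed to 504178, 488721 and 524092 FPKM. The preparation expressed its labelled cell type, with 12 of 12 adipocyte markers at FPKM 1 or more in every library. Markers of other cells of fat were also present, with 10 of 10 endothelial, 10 of 10 macrophage, 10 of 10 fibroblast, 8 of 8 mural and 8 of 8 mesothelial genes at that level, and their levels are set beside the members' differences further on. Replicate 1 stood apart: 11 of 12 adipocyte markers and 10 of 10 testis germ cell markers were highest there, and 10 of 10 endothelial markers were lowest. In such bulk samples fewer cells of a type and less RNA per cell cannot be told apart.

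Of the 10 genes, 5 reached FPKM 1 in every library, namely Elovl1, Elovl5, Fads1, Fads2 and Fads3, against 45.5% of all symbols. All 3 desaturases were among them, but only 2 of the 7 elongases. Elovl6 reached FPKM 1 in replicate 1 alone, and Elovl2, Elovl3, Elovl4 and Elovl7 stayed below it in every library.

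Elovl5, which lengthens polyunsaturated chains, was the highest elongase by mean. Elovl5 (chromosome 9, 77917365 to 77984519) measured 43.3, 66.9 and 66.1 FPKM, a mean of 58.8 ± 13.4 (SD, n = 3). Replicate 1 was the low library, and the others were nearly equal. Loci are given as in the table, on the mouse build that the submitters' processing notes name GRCm38 and mm10. Between 93.0% and 95.7% of all symbols lay at or below Elovl5 in each library.

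Elovl1, which makes saturated and monounsaturated very long chains for sphingolipids, was close behind. Elovl1 (chromosome 4, 118428093 to 118432952) measured 34.8, 50.4 and 65.0 FPKM, a mean of 50.1 ± 15.1 (SD, n = 3). Replicate 1 was again the lowest library. The Elovl1 row covers 2 transcription starts, and its locus shares 52 bases with that of Cdc20, which stood at 1.89 to 3.71 FPKM. Whether the libraries kept strand is not stated, so reads in shared stretches cannot be assigned.

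Elovl6, which turns palmitate into stearate and is known as a target of SREBP-1c in liver, was low. Elovl6 (chromosome 3, 129532386 to 129638493) measured 1.98, 0.846 and 0.787 FPKM. Replicate 1 was the high library, and the others lay just under the detection level. Scd1, the delta-9 desaturase that uses the product of Elovl6, stood at 1565, 403 and 446 FPKM. Scd1 thus exceeded Elovl6 by 9.09 ± 0.422 log2 units (SD, n = 3), with 9.56, 8.73 and 8.97 in replicates 1, 2 and 3.

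The remaining elongases stayed below FPKM 1 in every library. Their loci are on chromosome 13 for Elovl2 (41182382 to 41220403) and Elovl7 (108214404 to 108287107), chromosome 19 for Elovl3 (46131899 to 46135694) and chromosome 9 for Elovl4 (83778692 to 83806305). Elovl2, which takes polyunsaturated chains on towards docosahexaenoic acid and is known for its expression in liver and testis, stood at 0.633, 0.0602 and 0.00705 FPKM. Replicate 1 was the high library. The 10 testis germ cell markers summed to 1213, 22.4 and 10.0 FPKM in the same libraries, with Ddx4 and Dazl listed at 0 in replicate 2 and Mael and Dazl in replicate 3. The part of that RNA in the Elovl2 value was not tested. The 8 Sertoli and Leydig cell markers summed to 37.0, 1.99 and 3.38 FPKM, led by Insl3 at 31.9, 0.0497 and 0.557 and Star at 1.24 ± 0.0646 (SD, n = 3).

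Elovl3, an elongase of brown fat and skin, stood at 0.0325, 0.00140 and 0.0614 FPKM. Its locus overlaps that of Pitx3 by 9 bases. The 6 brown adipocyte markers summed to 16.8, 3.58 and 7.47 FPKM, most of it from Cox8b at 13.0, 2.45 and 5.72 and Cpt1b at 2.41, 0.931 and 1.25. Of these markers only Cox8b reached FPKM 1 in every library. Ucp1, the uncoupling protein of brown fat, stood at 0.322, 0.0178 and 0.286 FPKM. Elovl4, which makes ultra-long chains in retina, skin and brain, had 0.0190 FPKM in replicate 1 and 0.0539 in replicate 3, while replicate 2 lists it at 0. Elovl7, which acts on long saturated chains, stood at 0.0465, 0.0315 and 0.181 FPKM. Neither gene separated the libraries in the way Elovl2 did, since their highest value was in replicate 3.

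Fads3 was the highest desaturase and had the highest mean of the 10 genes. It resembles the other front-end desaturases in sequence and is known to act on the sphingoid base of ceramides. Fads3 (chromosome 19, 10041548 to 10059671) measured 84.3, 44.7 and 52.9 FPKM, a mean of 60.6 ± 20.9 (SD, n = 3). Replicate 1 was the high library.

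Fads1 and Fads2, the delta-5 and delta-6 desaturases of polyunsaturated fatty acid synthesis, stood lower. Fads1 (chromosome 19, 10182888 to 10196872) measured 22.2, 15.4 and 17.0 FPKM, a mean of 18.2 ± 3.53 (SD, n = 3). Fads2 (chromosome 19, 10064164 to 10101503) measured 6.43, 10.2 and 11.9 FPKM, a mean of 9.52 ± 2.81 (SD, n = 3). Fads1 was highest and Fads2 lowest in replicate 1, and Fads1 was above Fads2 in every library. The 3 genes lie in 1 cluster that spans 155325 bases, with 4492 bases between Fads3 and Fads2 and 81384 between Fads2 and Fads1. The row Mir6993 lies inside Fads1 and was listed at 0 in all 3 libraries.

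**Figure D1:**
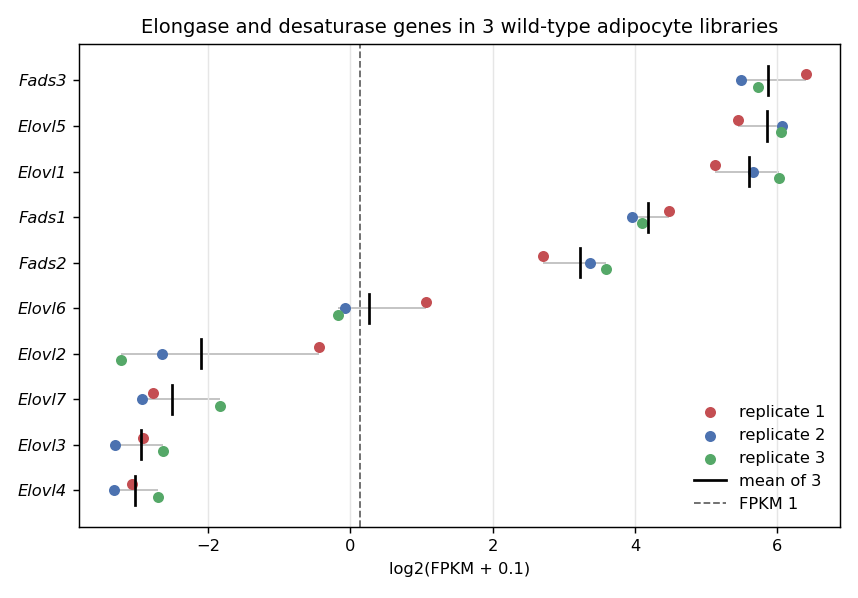
Levels of the 10 genes on the log2(FPKM + 0.1) scale, ordered by mean FPKM, with 1 point per library, the mean on the log2 scale as a black bar and FPKM 1 as a dashed line. Fads3, Elovl5, Elovl1, Fads1 and Fads2 lie right of the line in every library, Elovl6 straddles it, and the other 4 elongases lie left of it.

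Promoter sequence was read from RefSeq windows on GRCm38.p6, from 250 bases before to 50 after each start, and 8 members had a window at the start of their locus in the table. Elovl3 and Fads1 were not matched. Dnmt1 methylates cytosine in CpG, so the windows were described by their CpG content, although methylation itself was not measured here. The ratio of observed to expected CpG was 1.08 for Elovl2, 0.926 for Elovl4, 0.808 for Elovl5, 0.804 for Fads3, 0.763 for Fads2, 0.731 for Elovl7, 0.610 for Elovl6 and 0.534 for Elovl1. Of the 8 windows, 7 had a ratio of 0.6 or more, against 35.8% of 32851 windows of all genes, whose median was 0.384. The highest ratio belonged to Elovl2, which was near 0 in replicates 2 and 3, and the lowest to Elovl1, which was among the highest genes. The ratio had no single order with level, since Elovl5 and Fads3, also among the highest genes, had higher ratios than the low Elovl6. By number, the Elovl1 window held 20 CpG, as that of Elovl5 did, and the Elovl6 window 14. Outside the 8, another Elovl1 window held 6 CpG with a ratio of 0.235, and another Elovl2 window had 1.04. The 8 are 1 window per member, whereas the 35.8% counts every window of a gene.

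The 250 bases before the start are shown for the leading elongase, for the low Elovl6, for the CpG-rich Elovl2 and for Fads3, highest in replicate 1, and Fads2, lowest there. They are written 5′ to 3′ on the strand of the gene, with every CpG in capitals. Their positions on GRCm38.p6 are chr9:77917115-77917364 (plus strand) for Elovl5, chr3:129532136-129532385 (plus) for Elovl6, chr13:41220404-41220653 (minus) for Elovl2, chr19:10041298-10041547 (plus) for Fads3 and chr19:10101504-10101753 (minus) for Fads2.
Elovl5: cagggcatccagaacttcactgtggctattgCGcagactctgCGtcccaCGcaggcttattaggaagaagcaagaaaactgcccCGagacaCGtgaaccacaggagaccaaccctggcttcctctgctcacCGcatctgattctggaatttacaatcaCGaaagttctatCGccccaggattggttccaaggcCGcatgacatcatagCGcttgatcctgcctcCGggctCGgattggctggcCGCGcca
Elovl6: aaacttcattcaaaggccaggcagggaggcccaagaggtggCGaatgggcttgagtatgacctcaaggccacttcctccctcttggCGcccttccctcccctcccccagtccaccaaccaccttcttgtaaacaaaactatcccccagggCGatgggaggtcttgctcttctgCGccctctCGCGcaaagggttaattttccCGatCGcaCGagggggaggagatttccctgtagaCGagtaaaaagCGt
Elovl2: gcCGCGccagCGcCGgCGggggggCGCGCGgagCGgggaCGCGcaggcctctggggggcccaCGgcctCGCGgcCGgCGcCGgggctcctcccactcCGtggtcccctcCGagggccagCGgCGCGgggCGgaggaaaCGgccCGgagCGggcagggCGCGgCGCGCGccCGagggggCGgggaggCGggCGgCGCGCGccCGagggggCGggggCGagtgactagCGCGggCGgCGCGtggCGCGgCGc
Fads3: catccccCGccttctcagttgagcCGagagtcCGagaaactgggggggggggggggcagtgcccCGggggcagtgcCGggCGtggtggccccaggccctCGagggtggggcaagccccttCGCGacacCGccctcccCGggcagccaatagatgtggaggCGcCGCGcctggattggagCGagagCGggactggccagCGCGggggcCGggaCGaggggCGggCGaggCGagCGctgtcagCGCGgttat
Fads2: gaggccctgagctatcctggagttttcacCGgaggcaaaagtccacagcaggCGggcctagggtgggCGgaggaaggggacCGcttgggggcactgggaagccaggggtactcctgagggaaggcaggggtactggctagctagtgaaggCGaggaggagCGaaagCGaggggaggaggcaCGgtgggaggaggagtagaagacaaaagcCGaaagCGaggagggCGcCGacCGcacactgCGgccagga

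These stretches hold 14 CpG for Elovl5, 11 for Elovl6, 49 for Elovl2, 26 for Fads3 and 14 for Fads2. The whole windows were searched on both strands for 7 motifs, and matches are a description of letters only. The SREBP element TCACNCCAC, found in 1.24% of all windows, the LXR element DR4, the core AGGTCA repeated with 4 free bases between, in 0.0152%, the PPAR element DR1, the same with 1 free base, in 0.0396%, and TATAAA, in 13.6%, were in no window of a member. The CACGTG box, in 7.15% of all windows, was in those of Elovl4 and Elovl5, from -161 to -156 before the start in Elovl5. CCAAT, in 37.4%, was in the windows of Elovl1, Elovl4, Elovl5 and Fads3. It lies on the reverse strand from -71 to -67 and from -17 to -13 in Elovl5, and from -78 to -74 in Fads3, with a forward match from -106 to -102. GGGCGG, in 35.7%, was in the windows of Elovl1, Elovl2, Elovl4, Elovl7, Fads2 and Fads3, with 5 matches in Elovl2. The window of Elovl6 held none of the 7, and no matches overlapped in the 5 windows from which sequence is shown, whereas some did in Elovl1 and Elovl4.

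Within-library ratios gave the order of the levels. On the log2(FPKM + 0.1) scale, 40 of the 45 pairs of genes had 1 sign in 3 of 3 libraries. Each of these had an exact two-sided sign-flip permutation p of 0.25, the smallest that 3 libraries allow, so no pair could pass 0.05. Adjusted by Benjamini-Hochberg over all 45 ratios it was 0.281, and the 5 other pairs had an unadjusted exact p of 0.5 or more.

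At the top of the order Fads3 was not separated from Elovl5 or Elovl1 by more than the spread of the ratios. The log2 ratio of Fads3 over Elovl5 was 0.96, -0.58 and -0.32 in replicates 1, 2 and 3, a mean of 0.02 ± 0.824, and became -0.45 without replicate 1. The ratio of Fads3 over Elovl1 had a mean of 0.27 ± 0.873, and became -0.24 without replicate 1. Fads3 therefore led in replicate 1 and Elovl5 led in the others. Elovl5 exceeded Elovl1 in every library, by 0.31, 0.41 and 0.02, a mean of 0.25 ± 0.20.

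Below them the mean steps were wider than their SD. Elovl1 exceeded Fads1 by 1.43 ± 0.682 log2 units, with the narrowest step, 0.65, in replicate 1. Fads1 exceeded Fads2 by 0.95 ± 0.707, with 1.77 in replicate 1 and 0.58 and 0.51 in replicates 2 and 3. Fads2 exceeded Elovl6 by 2.95 ± 1.14, and Elovl6 exceeded Elovl2 by 2.37 ± 0.791.

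At the bottom the order of Elovl2 against Elovl7, Elovl3 and Elovl4 changed between libraries. Elovl2 was above Elovl7 by 2.32 and 0.28 in replicates 1 and 2 and below it in replicate 3, with a log2 ratio of -1.39. Its mean ratio of 0.41 ± 1.86 became -0.55 without replicate 1. Elovl7, Elovl3 and Elovl4 lay mostly under the pseudocount, so their mean steps of 0.44 and 0.08 compare values near 0.

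As shares of the summed FPKM of all 7 elongases, Elovl5 held 53.6%, 56.6% and 50.0% in replicates 1, 2 and 3, and Elovl1 held 43.1%, 42.6% and 49.2%. Together they made 96.6%, 99.2% and 99.2% of elongase RNA. Elovl6 held 2.45%, 0.715% and 0.596%. The summed level of the family was 80.9, 118 and 132 FPKM, lowest in replicate 1.

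Among the 3 desaturases Fads3 held 74.7%, 63.5% and 64.7% in replicates 1, 2 and 3. Fads1 kept a nearly constant share of 20.8% ± 1.14 (SD, n = 3). Fads2 held 5.69% in replicate 1 against 14.6% in each of replicates 2 and 3. The summed level was 113, 70.3 and 81.8 FPKM, highest in replicate 1, the opposite of the elongases. Shares do not change with the scale of a library.

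**Figure D2:**
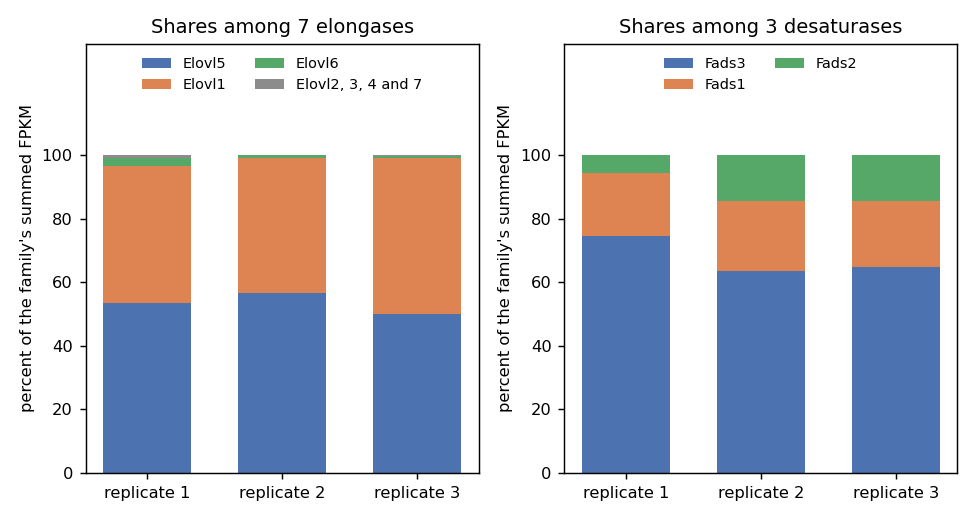
Stacked bars of each gene's percent of the summed FPKM of its family in each of the 3 libraries, for the 7 elongases on the left and the 3 desaturases on the right. Elovl5 and Elovl1 fill 96.6% or more of every elongase bar, and Fads2 takes a smaller part of the desaturase bar in replicate 1 than in replicates 2 and 3.

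The 6 genes that averaged FPKM 1 or higher, Elovl6 among them, fell on either side of the typical gene when libraries were compared. Each library was centred on the median of the 11993 genes that pass the same filter, 3.29, 3.08 and 3.25 on the log2 scale. Each difference sets 1 library against 1, with no replicate check and no test, and the differences from replicate 1 share that library.

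Elovl6, Fads3 and Fads1 were higher in replicate 1 than in both others. Elovl6 was higher by 0.93 than in replicate 2 and by 1.19 than in replicate 3, Fads3 by 0.71 and 0.64, and Fads1 by 0.31 and 0.34. Elovl1, Elovl5 and Fads2, of which the Elovl5 and Fads2 promoters are shown above, were lower in replicate 1. Their differences from replicates 2 and 3 were -0.74 and -0.93 for Elovl1, -0.83 and -0.64 for Elovl5, and -0.87 and -0.92 for Fads2. Without centring all these signs were the same. Of all genes, 37.2% were above both other libraries in replicate 1 and 45% below, against 3 and 3 of the 6 members. Elovl6 passes the filter only through replicate 1, which favours a high value there, and without it the counts are 2 and 3 of 5.

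Of the 6 members 1, Elovl6, passed 1 log2 unit in replicate 1 over replicate 3, where 8.01% of all genes passed it upwards and 4.71% downwards. The filter admitted Elovl6 through that same high value, and with a pseudocount of 1 its difference was 0.70 and no member was called. No member passed it in replicate 1 over replicate 2, where 9.03% of genes did upwards and 4.08% downwards, or in replicate 2 over replicate 3, where 0.742% and 1.89% did. Without centring, Elovl6 passed it in replicate 1 over replicate 2, at 1.14, and the share of upward calls among all genes called in that difference became 84.5%, against 68.9% with centring. Between replicates 2 and 3, again without centring, 17.0% of the calls were upward, against 28.2% with it. Over genes with a mean of at least 5, centred, the upward share was 54.7% in replicate 1 over replicate 2 and 38.7% in replicate 2 over replicate 3. The SD over the 3 libraries had a median of 0.465 over the 6 members and 0.238 over all genes. Elovl6, which the filter admitted through replicate 1 alone, had the largest SD of the 6, at 0.626. Elovl1, Elovl5, Fads2 and Fads3 ranged from 0.389 to 0.517. Fads1, at 0.191, was the one member below the median of all genes.

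**Figure D3:**
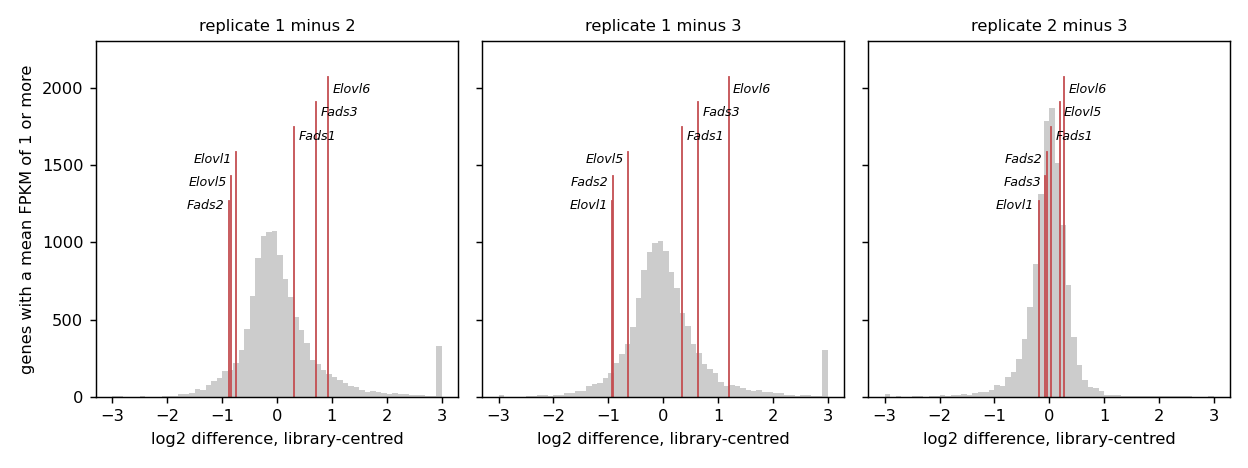
Histograms of library-centred log2 differences for 11993 genes between each pair of libraries, with the 6 members as red lines and differences beyond 3 log2 units drawn in the end bins. In both differences from replicate 1, Elovl1, Elovl5 and Fads2 lie left of 0 and Fads1, Fads3 and Elovl6 right of it, while all 6 lie within 0.264 of 0 between replicates 2 and 3.

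The cell type markers moved between the same libraries. Less their own mean over the libraries, the adipocyte markers had a median of 1.07, -0.40 and -0.53 log2 units in replicates 1, 2 and 3, and the endothelial markers -0.78, 0.47 and 0.31. The mural markers stood at -0.59, 0.02 and 0.65 and the mesothelial markers at -1.03, 0.14 and 0.92, whereas the macrophage markers stayed near 0 at 0.11, -0.07 and -0.09. Summed FPKM was 1847, 4139 and 3822 for the 10 endothelial markers, led by Gpihbp1 and Cldn5, and 2646, 1992 and 2224 for the 10 macrophage markers, led by Lyz2 and C1qb. Fabp4, at 24052, 40887 and 35482 FPKM, and Cfd, at 6288, 2058 and 2194, led the 12 adipocyte markers, which summed to 37856, 45270 and 40040. Fabp4 was the 1 adipocyte marker lowest in replicate 1 and made most of the sum, which therefore did not follow the marker median. No adipocyte, endothelial or macrophage marker was at 0. The part of these cell types in the members' differences was not tested.

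Other lists were smaller or less even. The 10 fibroblast markers, led by Ly6a and Dcn, summed to 1044, 1509 and 1868 FPKM, the 8 mural markers, led by Rgs5 and Tagln, to 482, 665 and 1180, and the 8 mesothelial markers, led by Slpi and Upk3b, to 55.5, 122 and 212. The 8 lymphocyte markers, led by Il7r and Cd79a, summed to 11.9, 5.48 and 14.6, with Cd3e and Nkg7 listed at 0 in replicate 2. The 6 erythroid markers, led by Hbb-b1 and Hba-a1, summed to 8240, 12482 and 9475, with Epb42, listed under its older symbol, at 0 in replicates 1 and 3. Testis germ cell RNA was led by Prm2, at 387, 14.2 and 2.92, and Prm1, at 348, 4.07 and 3.90.

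**Figure D4:**
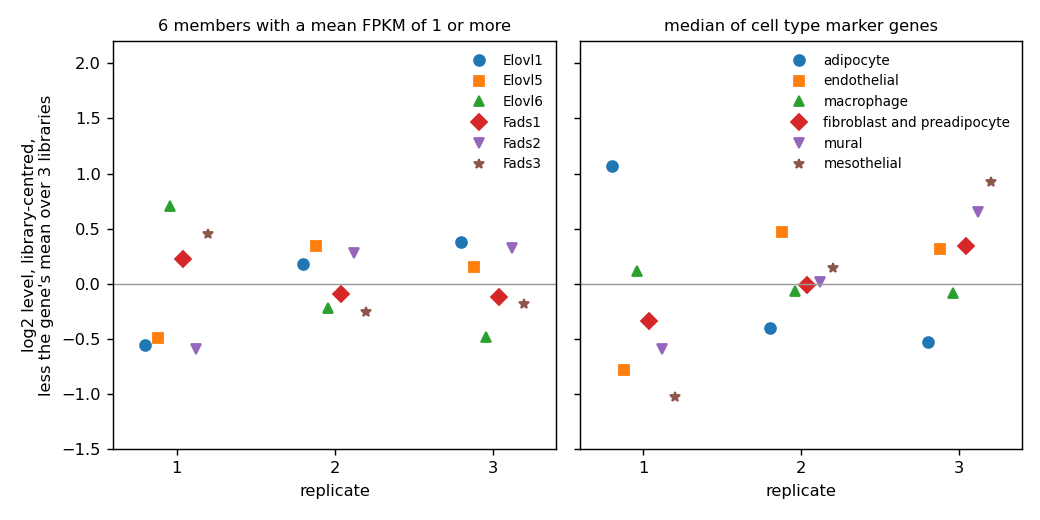
Library-centred log2 levels less the mean over the 3 libraries, for the 6 members averaging FPKM 1 or higher on the left and as medians over marker genes of 6 cell types on the right. Elovl6, Fads3 and Fads1 lie above 0 in replicate 1, as do the adipocyte and macrophage medians, and Elovl1, Elovl5 and Fads2 lie below it with the endothelial, mural, mesothelial and fibroblast medians.

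The genes most like each member across the 3 libraries were taken from 118 other pathway and marker genes, by the smallest of the largest gaps between their profiles. Elovl6 lay nearest to Cidec, a lipid droplet protein of fat cells, with a largest gap of 0.0894 log2 units, and to Srebf1, which encodes SREBP-1, with 0.105. Srebf1 stood at 45.4, 22.7 and 21.8 FPKM. Elovl6 passed the filter only through replicate 1, which favours a profile high there, as Cidec and Srebf1 have. Control of Elovl6 by Srebf1 was not tested. Fads3 lay nearest to the nuclear receptor gene Rxra, with a gap of 0.0313, and to the peroxisomal thiolase gene Acaa1a, with 0.0446. Fads1 lay nearest to the macrophage genes Lyz2, with 0.00835, and Csf1r, with 0.0741. On the centred scale 5 of the 10 macrophage markers were highest in replicate 1, as Fads1 was, and 0 were lowest there. Over all genes averaging FPKM 1 or higher these shares were 37.2% and 45%. The part of macrophage RNA in the Fads1 values was not tested.

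Elovl5 lay nearest to the acyl-CoA synthetase gene Acsl5, with a gap of 0.0964, and to Fabp4, with 0.109. Fabp4 was lowest in replicate 1, whereas 11 of the 12 adipocyte markers were highest there, unlike Elovl5. Elovl1 and Fads2 shared their nearest gene, the cytochrome b5 reductase Cyb5r1, with gaps of 0.115 and 0.0619. The next were Nr1h2, an LXR gene, for Elovl1, with 0.154, and Tek, an endothelial receptor gene, for Fads2, with 0.0886. Between members, Elovl1 and Fads2 were the closest pair, at 0.0950, and 1.29% of all genes were as near to Elovl1. With 3 libraries many genes share a profile. The share of all genes as near to the member as the named gene ranged from 0.05% for Lyz2 with Fads1 to 3.73% for Nr1h2 with Elovl1, and was 3.27% for Csf1r with Fads1.

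The enzymes that complete the elongation cycle were expressed broadly, with 6 of 7 listed genes at FPKM 1 or more in every library. The reductase gene Tecr, which makes the last step, stood at 98.8, 60.6 and 76.9 FPKM. Hsd17b12, the ketoacyl-CoA reductase, stood at 57.4, 35.8 and 30.2. Of the dehydratase genes, Hacd2 stood at 38.6, 13.7 and 14.8, Hacd1 at 12.5 ± 2.80, Hacd3 at 8.39 ± 0.721 and Hacd4 at 5.01 ± 0.673 (SD, n = 3 each). All 6 were highest in replicate 1, also on the centred scale, beside 37.2% of all genes averaging FPKM 1 or higher. Elovl5 and Elovl1 were lowest in that library. The centred excess of Hacd3 there was only 0.04 log2 units over each other library. Tecrl was listed at 0 in every library. The log2 ratio of Hsd17b12 over Elovl5 was 0.40, -0.90 and -1.13, and that of Tecr over Elovl5 was 1.19, -0.14 and 0.22.

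The list of electron donors held 6 cytochrome b5 and cytochrome b5 reductase genes, not all of them shown to serve desaturases here. Of these, 5 reached FPKM 1 in every library, and Cyb5a and Cyb5r3 stood above all 3 Fads genes in each. Cyb5a, the cytochrome b5 of the endoplasmic reticulum, stood at 568, 335 and 313 FPKM, and its mitochondrial paralog Cyb5b at 33.1 ± 3.20 (SD, n = 3). Cyb5r3, the main cytochrome b5 reductase, stood at 155, 192 and 238, and Cyb5r1 at 31.4, 47.7 and 53.3. Cyb5r4 stood at 13.8 ± 0.450, and Cyb5r2 stayed below 1 at 0.107, 0.556 and 0.425. By FPKM, 4 of the 6 genes, all of them reductase genes, were lowest in replicate 1, as Fads2 was. On the centred scale replicate 1 was lowest for 3 and highest for 1 of the 5 averaging FPKM 1 or higher. Over all genes these shares were 45% and 37.2%.

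Of 7 other desaturase genes 5 reached FPKM 1 in every library, and Scd1 was far the highest. Degs1, which places the double bond of ceramide, stood at 90.5 ± 4.46 FPKM and varied little, and its paralog Degs2 at 4.24 ± 1.04 (SD, n = 3 each). Scd2 stood at 12.3, 10.5 and 7.76 FPKM, and Scd3 at 6.56, 1.58 and 1.91. Scd4 stood at 0.626, 0.0813 and 0.171, and Fads6 at 0.307 ± 0.0490. All 4 Scd genes and Fads6 were highest in replicate 1, as Elovl6 and Fads3 were, and both Degs genes were lowest there. On the centred scale, replicate 1 was highest for 3 and lowest for 2 of the 5 averaging FPKM 1 or higher. Over all genes these shares were 37.2% and 45%. The Scd genes are closely related copies among which reads can be split, so their single values are uncertain.

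**Figure D5:**
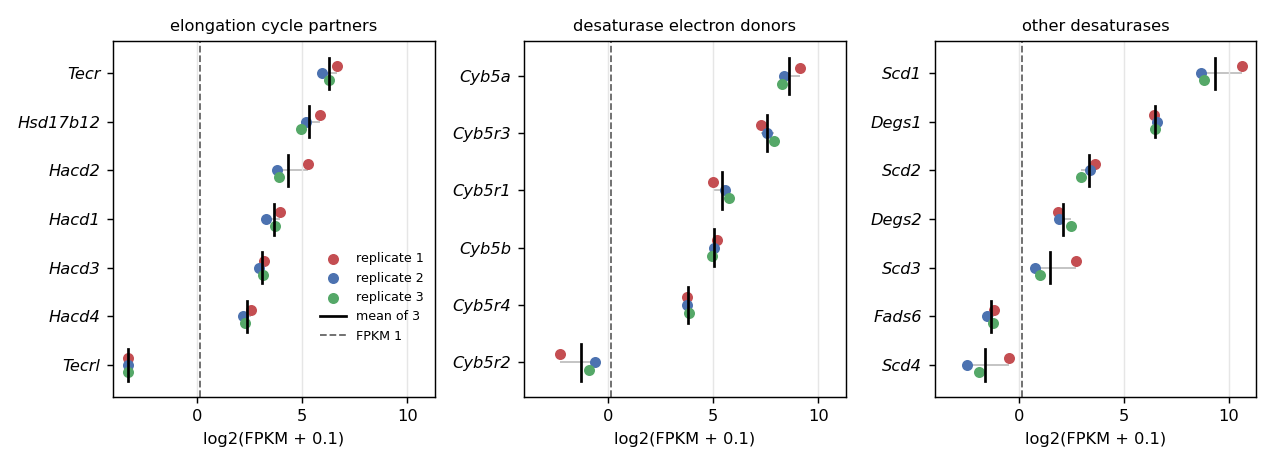
Levels on the log2(FPKM + 0.1) scale of the elongation cycle partners, the electron donors and the other desaturases, with 1 point per library, the mean as a black bar and FPKM 1 as a dashed line. Tecr, Cyb5a and Scd1 lead their panels, and Tecrl, Cyb5r2, Fads6 and Scd4 lie left of the line in every library.

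Genes that supply and use the substrates were mostly detected. All 4 malonyl-CoA genes reached FPKM 1 in every library, with Acly at 53.4 ± 5.15, Acaca at 32.0, 8.58 and 8.26, Mlycd, which degrades malonyl-CoA, at 8.84 ± 2.30 and Acacb at 7.40 ± 2.33. Of 5 acyl-CoA synthetase genes 4 did, with Acsl1 at 227, 44.1 and 45.3, Acsl5 at 37.4 ± 7.56, Acsl4, which prefers arachidonate, at 5.73 ± 0.657, and Acsl6 at 0.477 in replicate 1 and listed at 0 in the others. All 7 genes of peroxisomal chain shortening did, which includes the last step to docosahexaenoic acid. Of these, Scp2 stood at 122 ± 51.9 and Hsd17b4 at 52.2 ± 16.2 (SD, n = 3 each). On the centred scale and among genes averaging FPKM 1 or higher, replicate 1 was highest for 3 of 4 malonyl-CoA genes, 1 of 4 acyl-CoA synthetase genes and 6 of 7 peroxisomal genes, beside 37.2% of all genes.

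Of 12 genes that encode SREBP, LXR and PPAR control of lipid synthesis, 11 reached FPKM 1 in every library. Pparg, the master regulator of fat cells, stood at 174, 194 and 164 FPKM, and the LXR genes Nr1h2 and Nr1h3 at 51.0 ± 10.6 and 33.9 ± 5.46 (SD, n = 3 each). On the centred scale replicate 1 was highest for 6 and lowest for 3 of the 11 that averaged FPKM 1 or higher. The lowest gene was Ppara at 0.906, 0.318 and 0.157. The list's median log2(FPKM + 0.1) level was 4.34 ± 0.257, against 4.17 ± 0.270 for the desaturases, -1.64 ± 1.11 for the elongases and -0.19 ± 0.541 for all symbols (SD, n = 3 each). The elongase median depends on its 4 lowest genes: over the 3 elongases averaging FPKM 1 or higher it was 5.60, the level of Elovl1. That filter keeps elongases because they are high, and Elovl6 only through replicate 1, so 5.60 cannot rank the family against the desaturases. The summed FPKM of the 7 elongases averaged 110, against 88.3 for the 3 desaturases. The elongase sum was higher in replicates 2 and 3 only, since replicate 1 had 80.9 for the elongases and 113 for the desaturases.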

How the data were processed

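RNA-seq of 3 wild-type adipocyte libraries was analysed from a deposited table of FPKM values by the authors, with a column for each library. Among the tools listed in the submitters' processing notes are featureCounts, Bismark 0.22.1 and Trim Galore 0.5.0, with mm10 and GRCm38 as builds and no roles stated. Not given in the sources used here are the program that made the FPKM table and whether strand was kept. Values as small as 6.06e-62 occur, and the commonest ratio of low values was shared by 128 of 1263 rows at best, so whole reads were not recovered. A listed 0 can be a failed estimate.

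Columns were matched to libraries by their descriptions in the labels. Of 24889 rows, 27 with a date in place of a symbol were left out, and repeated symbols were represented by their highest row by mean. Tests used the log2(FPKM + 0.1) scale, which understates ratios near 0, and FPKM 1 counted as detected. Scripts were tested on simulated data. Members and lists were chosen with earlier results of these data known. Named genes were the members, all cycle partners, electron donors and other desaturases, the 3 highest and 1 lowest of other pathway lists, the 2 highest markers per cell type, and 2 nearest genes per member, except that some of these genes are not reported here. Ucp1, markers listed at 0 and genes overlapping a member were named after their values were seen. Python 3.11.15 was used with pandas 2.3.3, numpy 2.4.6 and matplotlib 3.10.9.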

Additional observations from a re-analysis of the deposited data

How the results depend on the processing

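Members detected in every library numbered 5, or 6 at a threshold of 0.5, and 5 at a threshold of 5 or with the rows of a symbol summed. Pairs with 1 sign in every library numbered 40 with each pseudocount, as TPM and with summed rows, and 40 to 43 with a library left out. With a library left out, the mean log2 ratio of Fads3 over Elovl5 ranged from -0.45 to 0.32, of Fads3 over Elovl1 from -0.24 to 0.55 and of Elovl2 over Elovl7 from -0.55 to 1.30, each lowest without replicate 1. The share of Elovl5 among the elongases then ranged from 51.8% to 55.1% and that of Fads3 among the desaturases from 64.1% to 69.7%. Members called in replicate 1 over replicate 2, 0 in the report beside 13.1% of all genes, were 1 without centring, beside 14%. They were 1 with no filter, which admits all 10 members, beside 15.4%, and 5 at 0.5 log2 units. In replicate 1 over replicate 3 members called were 1 in the report, beside 12.7%, and 2 with no filter, beside 14.4%. They were 0 with a mean FPKM of at least 5, which leaves out Elovl6, beside 9.9%. With a pseudocount of 1 they were 0, beside 10.1%, and at 0.5 log2 units they were 5. The share of all genes called between replicates 2 and 3, 2.63%, was 4.67% with no filter, 1.14% with a mean of at least 5 and 0.842% with a pseudocount of 1. At 0.5 log2 units, 33.3%, 34.5% and 12.3% of all genes passed in the differences of replicates 1 and 2, 1 and 3, and 2 and 3. The elongase median was -1.64, -2.24 to -1.14 with a library left out, 0.34 with a pseudocount of 1, 0.16 as a mean over the list and 5.60 over its genes averaging FPKM 1 or higher, where 4 genes drop out. No paired analysis was possible because the RNA libraries form a single group. Unknown depth limits all values near 0.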
